A study of Mus musculus with 12 samples.

Results

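Kinesins, the motor proteins that walk on microtubules, and the alpha and beta tubulins that microtubules are built from, were followed in polysome and RNP (ribonucleoprotein) pools of mouse oocytes with and without *Lsm14b*. The members were every gene whose symbol starts with Kif, Kifc, Tuba or Tubb followed by a digit. They were 58 of the 24259 gene symbols in the deposited table, 42 kinesin and 16 tubulin symbols. *Lsm14b* encodes an RNA-binding protein of the LSM14 family, and the pools separate RNA sedimenting with many ribosomes from lighter RNA-protein particles. Fully grown oocytes at the germinal vesicle stage came from WT mice and from females homozygous for *Lsm14b* tm1a(KOMP)Mbp, a reporter-tagged insertion allele carried by every cell of the mouse and not by oocytes alone (KO), on a C57BL/6J background. The mice were 3 weeks old and had received 5 IU of PMSG (pregnant mare serum gonadotropin) 46 h before collection, and cycloheximide was added to the oocytes of both genotypes. Lysate of about 1500 oocytes was run on each sucrose gradient, so each library pools oocytes, and how many mice gave them is not stated. Of the 28 fractions collected, fractions 11 to 28 made the polysome pool and fractions 1 to 10 the RNP pool, with 3 libraries for each genotype and pool and 12 in all. Levels are FPKM, fragments divided by transcript length and by library total, and can be compared between genes per length. FPKM are relative levels within a library, so a difference between pools is one of composition and not of the amount of RNA.

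Alpha and beta tubulin join as dimers that add to microtubule ends, and each comes from several genes whose proteins differ mostly in their tails. Kinesins use ATP to move along these filaments, and different members carry organelles, slide and shorten spindle microtubules, hold chromosomes or organise the midzone where a cell divides. A fully grown oocyte is arrested before its first meiotic division, stores RNA made during growth, and builds a spindle without centrioles when it resumes meiosis.

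*Lsm14b* itself stood at 11.3, 15.3 and 13.2 FPKM in the WT polysome libraries and at 34.6, 29.3 and 27.4 in the WT RNP libraries. In the KO it stood at 0.260, 0 and 0.0876 FPKM in the polysome pool and at 0.893, 0.0627 and 0 in the RNP pool, so every KO library lay below every WT library. Estimated depth was 4720000 to 7870000 fragments per library with a median of 6500000, and a gene of 3 kb would reach 3 fragments at 0.136 to 0.227 FPKM. By the same estimate the KO polysome libraries held 4720000 to 6490000 fragments and the WT polysome libraries 6060000 to 7870000. Correlations of log2 levels across genes between replicates of a group were 0.883 to 0.962. In KO polysome replicate 2 the small RNA gene *Mir300* was listed at 170809 FPKM and the 10 most abundant genes held 34.7% of the summed FPKM. Tubulin levels in that library lay among those of the other KO polysome libraries or close to them, for example 3026 FPKM of *Tubb2a* against 3096 and 3425. An exception was *Tuba3b*, at 10.8 FPKM there against 23.6 and 21.02.

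The oocyte label held in all 12 libraries. Of 12 oocyte markers, *Gdf9*, a growth factor secreted by oocytes, stood highest in the polysome libraries at 15569, 16191 and 14480.1 FPKM in WT and 16108, 17406 and 18497 in KO. *Oog1* was the marker at or near 0 in most libraries, with a highest value of 12.5 FPKM in WT polysome replicate 1. Markers of immune or blood cells summed to at most 8.71 FPKM in any library, and *Ptprc*, carried by all white blood cells, was at 0 in all 12. A gene was tested in a comparison when it reached 1 FPKM in at least 3 of its libraries, and it was called when its adjusted p in limma, corrected over all genes tested, was under 0.05. Nothing in the study's description says whether replicates came from separate sets of animals, so the p-values measure the spread between libraries.

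Of the 58 members, 38 were tested in at least 1 of 5 comparisons, 36 in all 5 and 20 in none. The 20 were 17 kinesin and 3 tubulin symbols that reached at most 3.42 FPKM in any library, and *Kif12*, *Kif19a*, *Kif6*, *Kif7* and *Tubb1* were at 0 in all. By role, 12 of 15 spindle and cytokinesis kinesins were tested, 10 of 17 transport kinesins, 3 of 9 kinesins of cilia or other roles, 7 of 7 alpha tubulins and 6 of 8 beta tubulins. Neither of the 2 symbols named as pseudogenes, *Kif4-ps* and *Tubb2a-ps2*, was tested. Tested members had to reach the filter in some group, so counts among them describe abundant members only.

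Beta tubulin RNA was the most abundant of the families. Summed over its genes it stood at 5712 ± 312 FPKM (SD, n = 3) in WT polysomes and 5317 ± 367 in the WT RNP pool. Summed alpha tubulin stood at 1309 ± 103 and 1371 ± 53.2 FPKM, and all kinesins together at 465 ± 28.8 and 604 ± 65.2. In KO polysomes the beta sum was 7479 ± 428 FPKM and the alpha sum 1966 ± 189, in each case with every KO library above every WT library. The KO RNP pool had a beta sum of 7014 ± 338 FPKM, again above every WT library. Its alpha sum of 1365 ± 36.9 FPKM overlapped the WT range. The kinesin sum was 522 ± 12.3 FPKM in KO polysomes, every KO library being above every WT library. It was 615 ± 9.13 in the KO RNP pool, within the WT range. As a share of all FPKM in its library, the beta sum of KO polysome replicate 2, the library with *Mir300*, was 1.02%, below the 1.16% to 1.22% of the WT polysome libraries, while replicates 1 and 3 held 1.46% and 1.48%. The separation of the beta sum in polysomes is thus lost on that scale. So is that of the kinesin sum, at 0.0733% in KO polysome replicate 2 against 0.0933% to 0.101% in the WT polysome libraries. These sums were not tested.

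**Figure D1:**
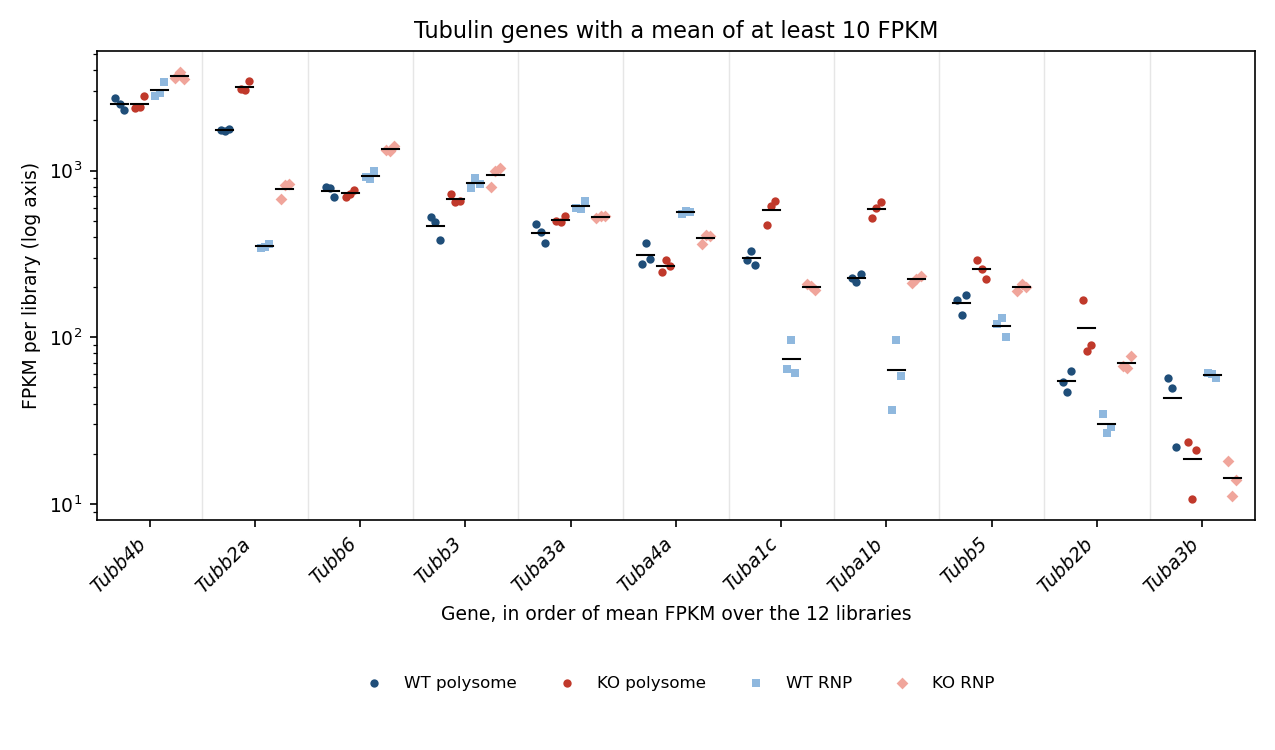
Levels of the 11 tubulin genes whose mean reached 10 FPKM, in each of the 12 libraries, on a log axis. Each point is 1 library and each short line a group mean. *Tubb2a*, *Tuba1c* and *Tuba1b* are higher in polysomes than in the RNP pool and higher in KO than in WT within each pool.

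Several tubulin genes named below are close copies of one another, and this bears on how reads were assigned to them. Over the first 1200 coding bases *Tubb2a* and *Tubb2b* were identical at 96.3% of positions, and *Tubb2a* and *Tubb5* at 84.6%. The first 60 coding bases of these 3 beta genes are printed to show how alike they are, from GENCODE M21 transcripts on GRCm38, 5′ to 3′ on each gene's own strand. Capitals mark every position where the 3 genes are not identical. *Tubb2a* and *Tubb2b* differed at 5 of these positions, *Tubb2a* and *Tubb5* at 7, and *Tubb2b* and *Tubb5* at 9.
Tubb2a: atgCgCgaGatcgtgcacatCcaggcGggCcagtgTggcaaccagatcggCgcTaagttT
Tubb2b: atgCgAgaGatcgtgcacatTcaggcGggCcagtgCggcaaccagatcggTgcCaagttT
Tubb5: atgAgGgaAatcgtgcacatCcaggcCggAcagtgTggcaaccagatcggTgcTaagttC

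In the longest transcript of *Tuba1b*, 69.5% of all 100-base stretches also occurred in another gene's transcripts, 48.6% in *Tuba1c*. The share was 53.4% for *Tuba1c*, 65.1% for *Tuba1a*, 36.9% for *Tubb2a*, 27.8% for *Tubb2b* and 29.1% for *Tubb4b*. It was 12.3% for *Tuba3a*, 11.8% for *Tuba3b* and 23.7% for *Kifc1*. Levels of these paralogs can therefore depend on how the authors' software divided shared reads, so sums over *Tuba1a* to *Tuba1c*, over *Tubb2a* and *Tubb2b* and over *Tuba3a* and *Tuba3b* are also given. The strand handling of the libraries is not stated, and *Kif17* shares exon bases with *Sh2d5* on its own strand, *Tuba1b* with *Gm49450*.

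The first comparison asks which members differ between KO and WT oocytes in the polysome pool. Among all genes, 10.4% of 9536 tested were called, 5.64% higher and 4.73% lower in the KO, with a median log2 change of 0.10. Of the 58 members, 36 were tested and 5 were called, all higher in the KO, with a median of 0.12 over the 36. That is 13.9% of those tested, near the 10.4% of all genes. The 5 were tubulins, out of 12 tubulins tested with a median of 0.60, and none of the 24 kinesins tested in limma was called, with a median of -0.01 and 5 at an unadjusted p under 0.05, a level reached by 2505 of the 9536 genes, although *Kif14* passed with rescaled libraries. In whole-oocyte lysates a change in the cells that contribute and a change in the RNA per cell cannot be told apart. Rescaling all libraries to the same median moved the median of all genes by 0.105, and the share of all calls that were higher in the KO from 54.4% to 67.6%. With any 1 KO polysome library left out, lower calls among all genes outnumbered higher ones, at 35.5% to 47.3% higher. With any 1 WT polysome library left out, 57.2% to 62.2% were higher. The filter sets part of this by construction, since genes reaching it only in the group that lost a library are then dropped.

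*Tuba1b*, a broadly expressed alpha tubulin gene at chr15:98931429-98934390 (mm10), had 228, 214 and 238 FPKM in the WT polysome libraries and 521, 597 and 649.6 in those of the KO. Every KO library lay above every WT library, a log2 change of 1.37 (SE 0.12, n = 3 and 3, adjusted p = 0.00111). Its neighbour *Tuba1c*, at chr15:99029889-99038105, stood at 292, 329 and 273 FPKM in WT and 470.3, 609.6 and 653 in KO polysomes. The groups did not overlap and the log2 change was 0.94 (SE 0.15, n = 3 and 3, adjusted p = 0.00745). Summed over *Tuba1a*, *Tuba1b* and *Tuba1c*, which removes the division of reads among them, the level was 527 ± 19.9 FPKM (SD, n = 3) in WT and 1172 ± 161 in KO polysomes.

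*Tubb2a*, a beta tubulin gene at chr13:34074278-34078008 known from neurons and many other cells, stood at 1759, 1735 and 1764 FPKM in WT polysomes and 3096, 3026 and 3425 in KO polysomes. The WT libraries lay close together and all KO libraries lay above them, with a log2 change of 0.86 (SE 0.08, n = 3 and 3, adjusted p = 0.00160). *Tubb5*, the beta tubulin gene of dividing cells at chr17:35833918-35838301, stood at 167, 136 and 180.1 FPKM in WT and 290.5, 256 and 223 in KO polysomes. Its groups did not overlap and it rose by 0.67 (SE 0.16, n = 3 and 3, adjusted p = 0.0311) on the log2 scale. *Tubb3*, best known as a marker of neurons, at chr8:123411562-123422010, stood at 523, 494 and 385 FPKM in WT and 722, 645 and 653 in KO polysomes. Here too every KO library was higher, with a log2 change of 0.54 (SE 0.13, n = 3 and 3, adjusted p = 0.0387). The calls of *Tubb5* and *Tubb3* were each lost in 9 of 14 alternative settings, and those of *Tubb2a* and *Tuba1c* in 1, without the intensity trend (highest adjusted p 0.0658 and 0.0762). The call of *Tuba1b* passed in all 14.

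*Tubb2b*, the close copy of *Tubb2a*, stood at 53.6, 47.2 and 62.3 FPKM in WT and 168, 82.9 and 89.4 in KO polysomes. All KO libraries were above the WT libraries, but 1 of them was far above the others, and with a log2 change of 0.98 (SE 0.27, n = 3 and 3, adjusted p = 0.0554) it was not called. It passed the threshold with a pseudocount of 5, with the filter at 5 FPKM and with rescaled libraries, and its adjusted p ranged from 0.0398 to 0.144 over the alternatives. Summed over *Tubb2a* and *Tubb2b* the level was 1807 ± 22.8 FPKM (SD, n = 3) in WT and 3296 ± 205 in KO polysomes, with no overlap and no test. *Tubb4b*, the most abundant member and a beta tubulin of cilia and many dividing cells, stood at 2725, 2517 and 2319.8 FPKM in WT and 2368, 2403 and 2804 in KO polysomes. These groups overlapped, as did those of *Tubb6* at 796, 784 and 689 FPKM in WT and 696, 725 and 764 in KO. Their log2 changes were 0.001 (SE 0.10) and -0.05 (SE 0.10), with no call for either.

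The alpha genes *Tuba3a* and *Tuba3b*, first known from testis, and *Tuba4a*, whose protein lacks the encoded last tyrosine of other alpha tubulins, were not called in this pool. *Tuba3a* stood at 475, 430.4 and 366 FPKM in WT and 497, 489 and 534 in KO polysomes, with no overlap and a log2 change of 0.26 (SE 0.12, n = 3 and 3, adjusted p = 0.212). *Tuba4a* stood at 275, 368 and 296 FPKM in WT and 246, 292 and 269 in KO, with overlapping groups. *Tuba3b* stood at 57.2, 49.8 and 21.8 FPKM in WT and 23.6, 10.8 and 21.02 in KO, where WT replicate 3 lay among the KO values. Without that library its log2 change was -1.55 with an adjusted p of 0.0375, against a range of 0.0375 to 0.334 over the alternatives. The sum of *Tuba3a* and *Tuba3b* was 467 ± 73.05 FPKM in WT and 525 ± 27.7 in KO polysomes, which overlapped. *Tuba1a*, the alpha gene of the developing brain, stayed at or below 6.99 FPKM in every library.

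Markers of granulosa or cumulus cells, the somatic cells around the oocyte, were also measured in these libraries. Their 12 genes summed to 76.3, 27.9 and 44.4 FPKM in WT polysomes and 81.5, 86.2 and 103 in KO polysomes, and to 35.3, 31.3 and 34.8 and 65.5, 61.02 and 43.2 in the WT and KO RNP pools. In both pools every KO library lay above every WT library. In polysomes this separation rested on *Inha*, since the other 11 genes summed to 66.8, 27.9 and 36.3 FPKM in WT and 30.04, 46.8 and 63.8 in KO, which overlapped. *Cyp19a1* stood at 61.95, 19.00 and 32.00 FPKM in WT and 14.6, 23.5 and 34.5 in KO polysomes, also overlapping, with a log2 change of -0.54 (SE 0.45, adjusted p = 0.495). In the RNP pool the 11 genes without *Inha* summed to 35.3, 31.03 and 34.8 FPKM in WT and 54.4, 54.99 and 39.4 in KO, without overlap. *Fshr* in that pool stood at 4.12, 5.62 and 5.33 FPKM in WT and 13.6, 9.77 and 7.57 in KO. Its groups were apart but it was not called, with a log2 change of 0.88 (SE 0.30, adjusted p = 0.0704). Of the 12, 4, 3 and 3 reached 1 FPKM in the WT polysome libraries and 6, 7 and 7 in the KO polysome libraries. *Inha*, an inhibin subunit gene, was the most abundant in KO polysomes at 51.4, 39.4 and 39.5 FPKM against 9.58, 0 and 8.11 in WT polysomes, and *Cyp19a1*, the aromatase gene, was the most abundant in the other groups. Of 7 markers tested in the polysome pool 3 were called, all higher in the KO, namely *Inha*, *Inhba* and *Fshr*, and of 4 tested in the RNP pool 1 was called, *Inha*. *Inha* in both pools, and *Inhba* and *Fshr* in polysomes, reached the filter only through the KO libraries. These calls are thus no support for a difference, and no fold is given. Their WT libraries lay at or near 0, except for *Inha* in polysomes, at 9.58 and 8.11 FPKM in replicates 1 and 3. *Foxl2*, a defining transcription factor of granulosa cells, was at 0 in all libraries but KO RNP replicate 2, and *Amhr2* in all but KO RNP replicate 1. *Amh* reached at most 1.44 FPKM and *Fst* at most 0.449. The part of somatic RNA in the tubulin rises was not tested. Markers of the oocyte itself differed as well, since 6 of the 11 tested were called in the polysome pool, 4 higher and 2 lower.

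The same question in the RNP pool gave more calls, for members and for all genes. Of 9931 genes tested 20.7% were called, 10.5% higher and 10.2% lower in the KO, with a median log2 change of 0.05. Among 36 members tested 10 were called, 7 higher and 3 lower, which is 27.8%, with a median of 0.21. Of these, 9 were among the 12 tubulins tested, with a median of 0.65, and 1 among the 24 kinesins tested, with a median of 0.03. Rescaling to the same median moved the median of all genes by 0.130 in this pool and the share of calls that were higher from 50.8% to 63.2%. With any 1 KO RNP library left out 1255 to 1298 genes were called in place of 2057, and 42.7% to 43.7% of them were higher. With any 1 WT RNP library left out 53.9% to 55.1% were higher. The filter sets part of this by construction, as in the polysome pool. Without the intensity trend the calls of *Tubb6*, *Tuba4a* and *Tubb4b* were lost.

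*Tuba1b* stood at 36.7, 95.97 and 58.8 FPKM in the WT RNP pool and 211, 224 and 234 in the KO RNP pool. The WT libraries were spread widely, yet all KO libraries lay well above them, with a log2 change of 1.89 (SE 0.28, n = 3 and 3, adjusted p = 0.00197). *Tuba1c* stood at 64.2, 95.7 and 61.3 FPKM in WT and 209, 203 and 192 in KO. Its groups were likewise apart and its log2 change was 1.47 (SE 0.17, n = 3 and 3, adjusted p = 0.000531). The sum of *Tuba1a*, *Tuba1b* and *Tuba1c* was 139 ± 49.04 FPKM in the WT and 428 ± 5.63 in the KO RNP pool.

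Among beta genes, *Tubb2a* stood at 341, 348 and 364 FPKM in the WT and 676, 824 and 827 in the KO RNP pool. All KO values were above all WT values, with a log2 change of 1.14 (SE 0.09, n = 3 and 3, adjusted p = 9.53e-05). *Tubb2b* stood at 34.8, 26.5 and 29.1 FPKM in WT and 66.8, 65.8 and 77.1 in KO, and *Tubb5* at 120.1, 130.3 and 100.4 in WT and 189.9, 208 and 199 in KO. Neither gene's groups overlapped. The log2 changes were 1.19 (SE 0.16, adjusted p = 0.00119) for *Tubb2b* and 0.77 (SE 0.12, adjusted p = 0.00244) for *Tubb5*. The sum of *Tubb2a* and *Tubb2b* was 381 ± 10.7 FPKM in the WT and 845 ± 89.02 in the KO RNP pool, also without overlap. *Tubb6*, a beta gene with a divergent protein, stood at 914, 885 and 991 FPKM in WT and 1329.5, 1303 and 1412 in KO, again without overlap, and rose by 0.54 (SE 0.07, adjusted p = 0.000849) on the log2 scale. The smallest called rise was that of *Tubb4b*, from 2815, 2929 and 3409 FPKM in WT to 3581, 3898 and 3554 in KO. Its groups were separate by a narrow margin, at a log2 change of 0.27 (SE 0.08, adjusted p = 0.0314), and the call was lost in 8 of 14 alternatives. *Tubb3* stood at 785, 898 and 831 FPKM in WT and 797, 999 and 1037 in KO, with overlapping groups and no call.

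The 3 members lower in the KO RNP pool were 2 alpha tubulins and 1 kinesin. *Tuba3b*, at chr6:145615961-145621477, stood at 61.05, 59.99 and 57.03 FPKM in WT and 17.98, 11.1 and 13.97 in KO. The WT libraries were nearly equal and far above all KO libraries, and the log2 change was -1.999 (SE 0.20, n = 3 and 3, adjusted p = 0.000267). *Tuba4a*, at chr1:75210827-75219253, stood at 551, 569.7 and 561 FPKM in WT and 361, 412 and 404 in KO. It fell without overlap, with a log2 change of -0.52 (SE 0.08, n = 3 and 3, adjusted p = 0.00218). *Kifc3*, a motor that walks to microtubule minus ends, at chr8:95081199-95142540, stood at 18.3, 22.6 and 32.1 FPKM in WT and 12.8, 6.67 and 9.26 in KO. The groups did not overlap and the log2 change was -1.26 (SE 0.30, n = 3 and 3, adjusted p = 0.0160), a call lost without KO RNP replicate 2 (adjusted p = 0.0588, the highest of 14 alternatives). *Tuba3a* stood at 595, 586 and 654 FPKM in WT and 519.8, 536 and 533 in KO, apart but not called, with a log2 change of -0.21 (SE 0.07, adjusted p = 0.0743). After quantile normalization its adjusted p was 0.0208, the lowest of a range of 0.0208 to 0.679 over the alternatives. Summed with *Tuba3b*, the level was 671 ± 35.3 FPKM in the WT and 544 ± 5.32 in the KO RNP pool, every KO library being lower, a smaller difference in proportion than that of *Tuba3b* alone. This sum was not tested.

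**Figure D2:**
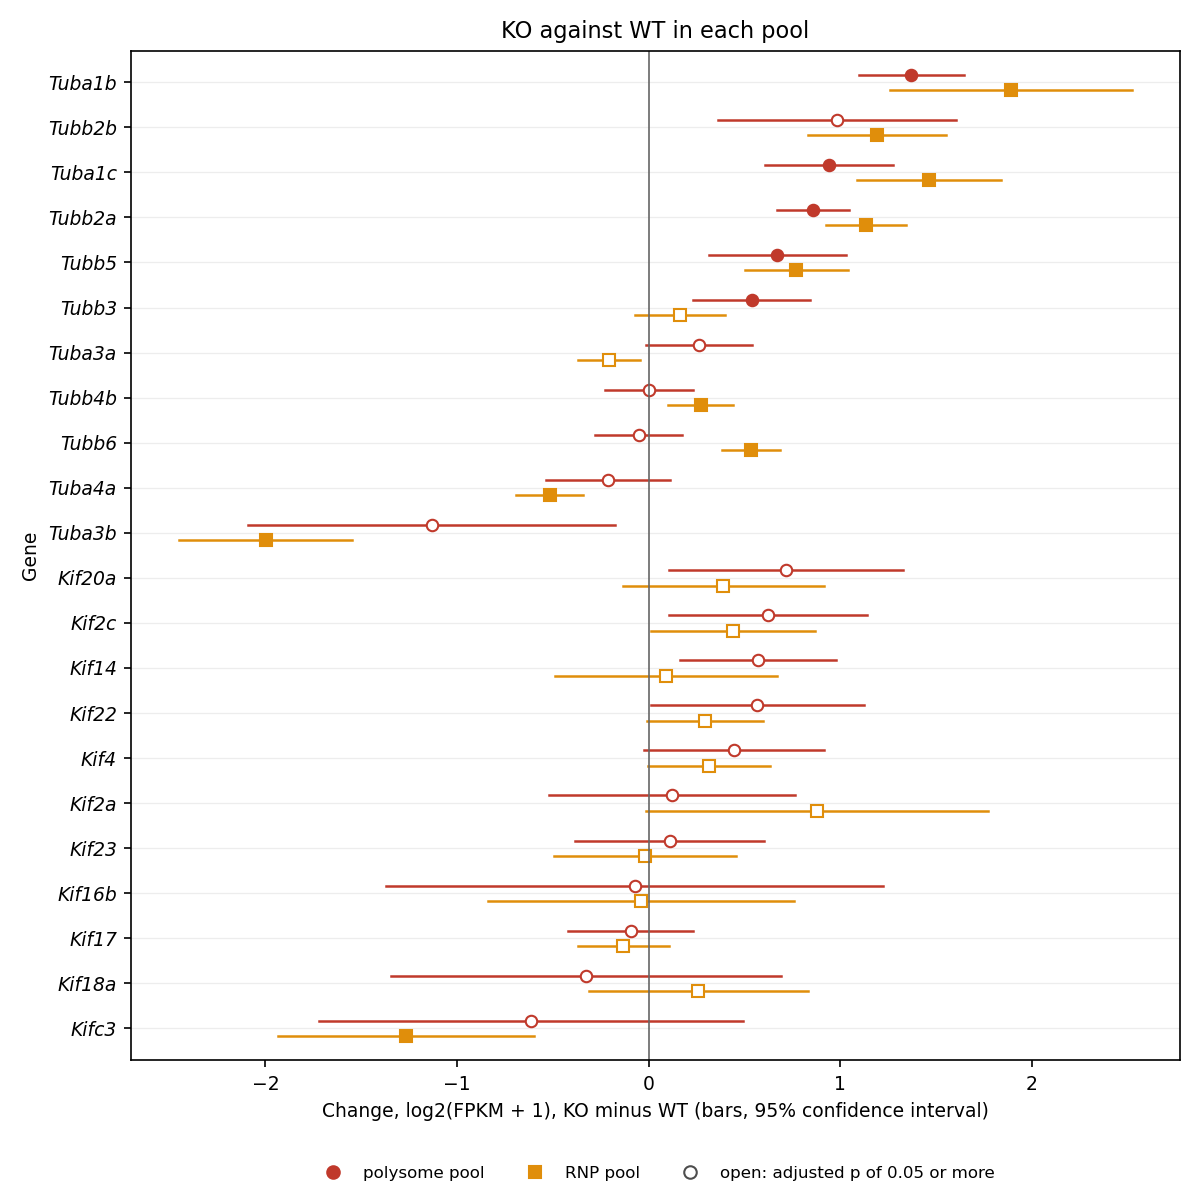
Log2 change from WT to KO for each tested member whose mean reached 10 FPKM, in the polysome pool and in the RNP pool, with 95% intervals from limma and 3 libraries per group. Filled points are called. *Tuba1b*, *Tuba1c*, *Tubb2a* and *Tubb5* are called higher in both pools, and *Tuba3b*, *Tuba4a* and *Kifc3* are called lower in the RNP pool.

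Whether the change between genotypes differs between the pools was tested directly, as the KO against WT difference of the polysome-to-RNP ratio. Among all genes 0.237% of 10949 tested were called, while 11.1% had an unadjusted p under 0.05. With limma 0 of 38 members tested were called and 5 had an unadjusted p under 0.05, with a median of -0.06 against 0.04 for all genes. The sign of the members' median changed between alternatives, so it gives no direction. *Tubb6* came closest, with a log2 difference of -0.59 (SE 0.11, adjusted p = 0.0557), the change in polysomes being the lower one. Its adjusted p ranged from 0.0283 to 0.416 over the alternatives and was under the threshold with the filter at 5 FPKM, with quantile normalization and without WT polysome replicate 3. The other 4 were *Tuba3a* at 0.47, *Tubb2a* at -0.28, *Kif11* at 1.06 and *Tuba1c* at -0.52 on the log2 scale, none of them called. A call in 1 pool and not in the other is thus not shown to be a difference between pools.

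Shares of each gene show the make-up of tubulin RNA in each pool and genotype. Of beta tubulin FPKM, *Tubb2a* held 30.7% ± 1.76 (SD, n = 3) in WT polysomes and 42.5% ± 0.443 in KO polysomes. It held 6.61% ± 0.226 in the WT RNP pool and 11.04% ± 0.758 in the KO RNP pool. *Tubb4b* was the leading beta gene in the RNP pool, with 57.3% ± 1.95 in WT and 52.5% ± 2.13 in KO, against 44.1% ± 1.14 and 33.7% ± 1.49 in polysomes. In KO polysomes *Tubb2a* thus stood first and *Tubb4b* next, the reverse of WT polysomes. In the RNP pool *Tubb6* and *Tubb3* followed *Tubb4b* in both genotypes, and *Tubb2a* came after them. Of alpha tubulin FPKM, *Tuba3a* held 32.3% ± 2.86 in WT and 25.9% ± 2.05 in KO polysomes, and *Tuba4a* 23.9% ± 2.93 and 13.7% ± 1.00. The sum of *Tuba1a*, *Tuba1b* and *Tuba1c* made up 40.4% of alpha tubulin in WT polysomes and 59.5% in KO polysomes, and 10.1% and 31.4% in the WT and KO RNP pools. These shares carry no test.

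**Figure D3:**
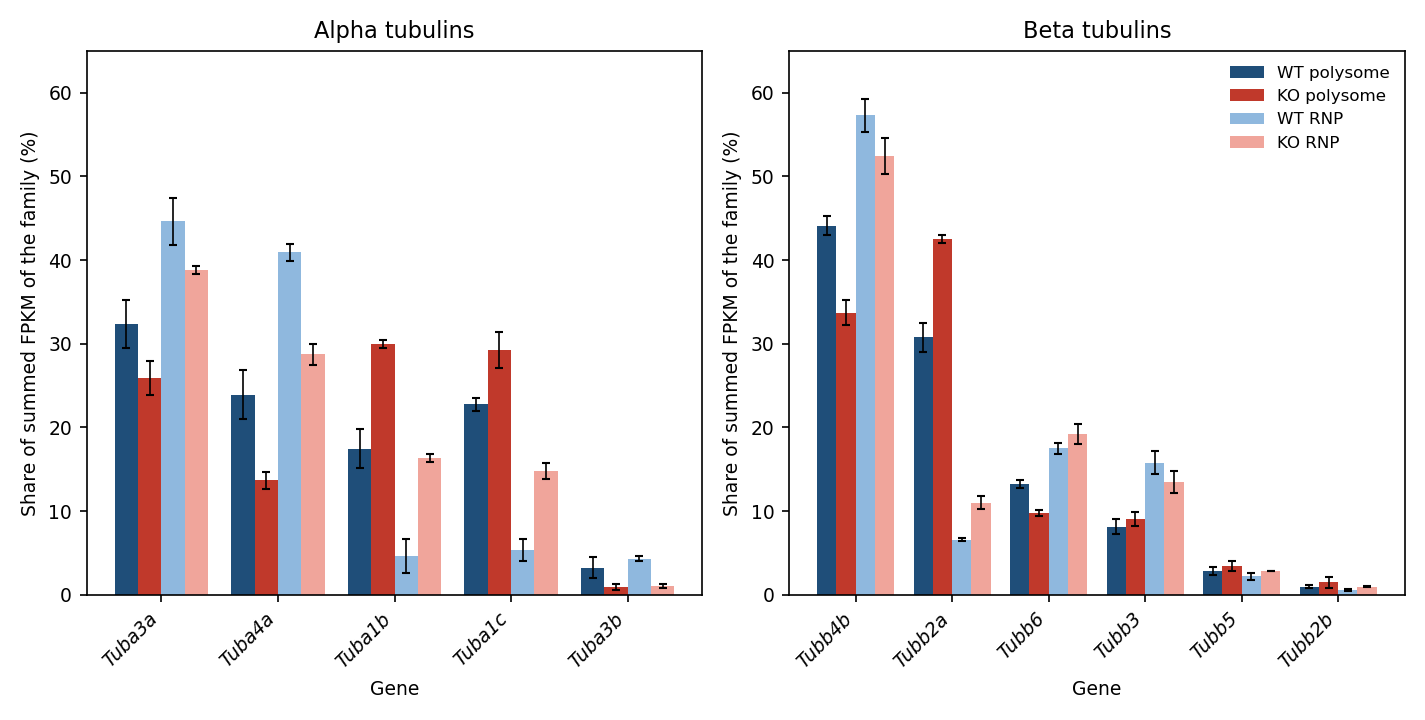
Share of each gene in summed alpha tubulin FPKM and in summed beta tubulin FPKM, in percent, as group means of 3 libraries. *Tubb2a* holds 42.5% of beta tubulin in KO polysomes and 6.61% in the WT RNP pool.

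Among kinesins, *Kif17* was the most abundant. It is a transport motor of the kinesin-2 family, at chr4:138262249-138301973, and stood at 167, 146 and 143 FPKM in WT and 154, 149 and 126 in KO polysomes. In the RNP pool it stood at 328, 256 and 293 FPKM in WT and 276, 258 and 262 in KO. The genotypes overlapped in both pools. The next 7 by mean level were all spindle or cytokinesis motors, in the order *Kif2c*, *Kif4*, *Kif22*, *Kif14*, *Kif23*, *Kif20a* and *Kif2a*. *Kif2c* and *Kif2a*, kinesin-13 proteins that take microtubules apart at their ends, had levels of 24.7, 37.7 and 37.4 and 22.8, 29.6 and 23.3 FPKM in WT polysomes. *Kif2c* stood at 55.7, 47.4 and 49.7 FPKM in KO polysomes, above all WT libraries, with a log2 change of 0.62 (SE 0.23, adjusted p = 0.123) and no call. *Kif2a* stood at 19.3, 30.1 and 35.1 FPKM in KO polysomes, overlapping WT.

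The chromokinesins *Kif4* and *Kif22* bind chromosome arms. *Kif4* stood at 46.3, 37.2 and 43.5 FPKM in WT and 70.99, 49.3 and 55.1 in KO polysomes, with a log2 change of 0.45 (SE 0.21, adjusted p = 0.212). *Kif22* stood at 21.2, 19.8 and 15.3 FPKM in WT and 30.2, 26.1 and 28.1 in KO polysomes, with a log2 change of 0.57 (SE 0.24, adjusted p = 0.181). The KO libraries lay above the WT libraries for both genes, without a call. *Kif14*, a motor of the cytokinesis midbody, stood at 42.96, 44.5 and 43.8 FPKM in WT and 60.3, 61.5 and 75.8 in KO polysomes, a log2 change of 0.57 (SE 0.18, adjusted p = 0.0776). It too was separate without being called, and its adjusted p ranged from 0.0346 to 0.281 over the alternatives, passing only with rescaled libraries.

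*Kif23*, the motor of the centralspindlin complex, stood at 23.9, 30.6 and 27.3 FPKM in WT and 29.8, 28.4 and 29.98 in KO polysomes, which overlapped. *Kif20a*, which brings the chromosomal passenger complex to the midzone, stood at 16.3, 23.96 and 19.04 FPKM in WT and 29.3, 42.5 and 28.2 in KO polysomes. Its KO libraries were all higher, with a log2 change of 0.72 (SE 0.27, adjusted p = 0.132) and no call. *Kif11*, the motor that pushes spindle poles apart, was low at 2.54, 4.73 and 4.37 FPKM in WT and 6.34, 9.51 and 6.11 in KO polysomes, separate but not called, with a log2 change of 0.78 (SE 0.42, adjusted p = 0.282). *Kif18a*, which dampens chromosome movement at microtubule plus ends, stood at 4.70, 7.87 and 12.9 FPKM in WT and 7.42, 6.57 and 4.57 in KO polysomes, with overlap. *Kif20b* stood at 6.31, 7.92 and 4.71 and 11.2, 6.72 and 12.02 FPKM, and *Kifc1*, a minus-end motor of spindle poles, at 4.59, 2.13 and 0 and 5.08, 1.74 and 4.26, both overlapping. In the RNP pool the KO libraries of *Kif2c*, *Kif4*, *Kif22* and *Kif20a* all lay above the WT libraries, with log2 changes of 0.44, 0.32, 0.29 and 0.39 and no call. Those of *Kif14*, *Kif23*, *Kif18a*, *Kif11*, *Kif20b* and *Kifc1* overlapped the WT libraries. *Kif2a* overlapped as well, at 5.15, 11.5 and 6.09 FPKM in the WT and 17.0, 20.0 and 8.02 in the KO RNP pool. Its log2 change was 0.64 to 1.25 over the settings, with no call in any of them. *Kif15*, another spindle motor, reached at most 0.359 FPKM. The 12 spindle and cytokinesis kinesins tested had median log2 changes of 0.57 and 0.30 in the polysome and RNP pools, with 0 called by limma. At an unadjusted p under 0.05 there were 4 and 1 of the 12, beside 2505 of 9536 and 3385 of 9931 among all genes. The share of all genes with separate groups was not counted. Separate groups without a call thus describe the libraries of these motors, in either pool, and show no rise.

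The transport kinesins other than *Kif17* and *Kifc3* were low or scattered. *Kifc3* stood at 25.1, 13.2 and 6.52 FPKM in WT and 10.8, 6.18 and 8.23 in KO polysomes, with overlap. *Kif16b*, a motor of early endosomes, stood at 5.22, 27.7 and 8.78 FPKM in WT polysomes, where 1 library lay far above the others, and at 7.09, 10.6 and 14.99 in KO polysomes. *Kif5b*, the widely expressed heavy chain of conventional kinesin, stood at 5.69, 3.76 and 1.62 FPKM in WT and 2.62, 0.323 and 1.97 in KO polysomes, also overlapping. In the RNP pool *Kif5b* overlapped too, at 4.51, 3.32 and 1.84 FPKM in WT and 2.63, 1.69 and 2.05 in KO. The 9 transport kinesins tested had a median log2 change of -0.20 in polysomes, with 0 called by limma and 0 at an unadjusted p under 0.05, and of -0.13 in the RNP pool with 1 called. The 3 kinesins of cilia or other roles, *Kif24*, *Kif9* and *Kif26b*, had medians of -0.14 and -0.32, with 0 called by limma in either pool and 1 and 0 at an unadjusted p under 0.05.

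**Figure D4:**
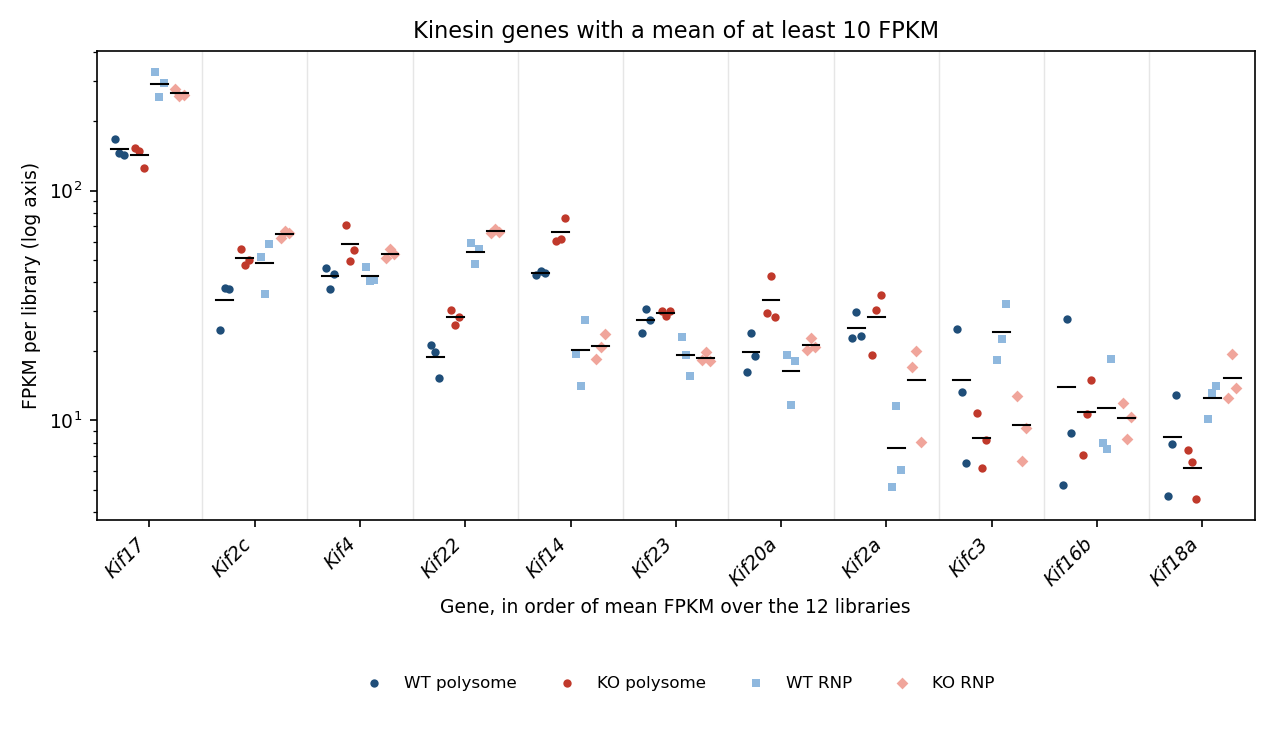
Levels of the 11 kinesin genes whose mean reached 10 FPKM, in each of the 12 libraries, on a log axis. Each point is 1 library and each short line a group mean. *Kif17* and *Kif22* lie lower in polysomes than in the RNP pool, and *Kif14* lies higher, in both genotypes.

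How members are placed between the pools was asked within each genotype. In WT, 14.7% of 9574 genes tested were called, 7.97% higher and 6.72% lower in polysomes, with a median log2 difference of -0.09. With rescaled libraries 47.5% of the calls were higher in place of 54.3%, and with any 1 WT RNP library left out 66.2% to 66.8%. With any 1 WT polysome library left out 49.3% to 53.6% were higher. Here too the filter drops genes reaching it only in the pool that lost a library. Of 36 members tested 11 were called, 6 higher and 5 lower, which is 30.6%, with a median of 0.03 whose sign changed between alternatives. By kind these were 7 of 12 tubulins and 4 of 24 kinesins. *Tubb2a* had the largest difference, standing at 1759, 1735 and 1764 FPKM in polysomes and 341, 348 and 364 in the RNP pool. The pools were far apart, with a log2 difference of 2.32 (SE 0.08, n = 3 and 3, adjusted p = 1.28e-06). *Tuba1c*, *Tuba1b* and *Tubb2b* were also higher in polysomes, without overlap, by 2.02 (SE 0.19, adjusted p = 0.000307), 1.92 (SE 0.30, adjusted p = 0.00383) and 0.83 (SE 0.21, adjusted p = 0.0338) on the log2 scale. The call of *Tubb2b* was lost in 8 of 14 alternatives.

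Among kinesins *Kif2a* stood at 22.8, 29.6 and 23.3 FPKM in WT polysomes and 5.15, 11.5 and 6.09 in the WT RNP pool. It was higher in every polysome library, with a log2 difference of 1.67 (SE 0.36, n = 3 and 3, adjusted p = 0.0169). *Kif14* stood at 19.4, 14.1 and 27.4 FPKM in the WT RNP pool, below all WT polysome libraries, with a log2 difference of 1.12 (SE 0.27, n = 3 and 3, adjusted p = 0.0283), a call lost in 7 of 14 alternatives. On the other side, *Kif22* stood at 59.2, 48.2 and 55.7 FPKM in the WT RNP pool, above all polysome libraries, and *Kif17* was placed the same way. Their log2 differences were -1.49 (SE 0.23, adjusted p = 0.00365) and -0.93 (SE 0.14, adjusted p = 0.00320). The tubulins lower in WT polysomes were *Tubb3*, *Tuba4a* and *Tuba3a*, with log2 differences of -0.85 (SE 0.13, adjusted p = 0.00353), -0.85 (SE 0.13, adjusted p = 0.00312) and -0.54 (SE 0.12, adjusted p = 0.0195). None of the 3 had overlapping pools. The call of *Tuba3a* was lost in 5 of 14 alternatives, including without each WT RNP library, and that of *Kif2a* in 2, without WT RNP replicates 1 and 3. Those of *Kif17*, *Tubb3* and *Tuba4a* were lost without the intensity trend. *Tubb4b* and *Tubb6* had log2 differences of -0.27 (SE 0.10, adjusted p = 0.0914) and -0.30 (SE 0.10, adjusted p = 0.0712) in WT and were not called. Each passed with rescaled libraries, at adjusted p of 0.0252 and 0.0286. *Tubb6* also passed with quantile normalization, at a log2 difference of -0.60 (adjusted p = 0.00370). Over the alternatives their adjusted p ranged from 0.0252 to 0.462 and from 0.00370 to 0.405.

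In the KO, 29.2% of 9851 genes tested were called, 15.5% higher and 13.8% lower in polysomes, with a median log2 difference of -0.04. With rescaled libraries 45.3% of the calls were higher in place of 52.9%, and with any 1 KO RNP library left out 57.0% to 58.2%. With any 1 KO polysome library left out 49.1% to 51.9% were higher. Again the filter drops genes reaching it only in the pool that lost a library. Of 36 members tested 13 were called, 6 higher and 7 lower, which is 36.1%. The members' median was 0.18, and its sign changed without the filter, to -0.04. The called members were 8 of 12 tubulins and 5 of 24 kinesins. *Tubb2a* again led, with a log2 difference of 2.04 (SE 0.09, adjusted p = 1.42e-06), followed by *Kif14* at 1.60 (SE 0.17, adjusted p = 0.000153), *Tuba1c* at 1.50 (SE 0.13, adjusted p = 4.12e-05) and *Tuba1b* at 1.39 (SE 0.10, adjusted p = 2.07e-05). *Kif14* stood at 60.3, 61.5 and 75.8 FPKM in KO polysomes and 18.6, 20.9 and 23.8 in the KO RNP pool, with a wide gap between them. *Kif23* stood at 29.8, 28.4 and 29.98 FPKM in KO polysomes and 18.3, 19.8 and 18.2 in the KO RNP pool, apart in every library, with a log2 difference of 0.62 (SE 0.16, adjusted p = 0.0203). The call of *Kif23* was lost in 3 of 14 alternatives, without each KO RNP library (adjusted p 0.0518 to 0.0729). *Tubb5* was the smallest call on this side, at 0.36 (SE 0.11, adjusted p = 0.0429), and lost it in 10 of 14 alternatives.

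Lower in KO polysomes were *Kif22* with a log2 difference of -1.22 (SE 0.14, adjusted p = 0.000238), *Kif18a* with -1.18 (SE 0.28, adjusted p = 0.0123) and *Kif17* with -0.90 (SE 0.11, adjusted p = 0.000325). *Kif18a* stood at 7.42, 6.57 and 4.57 FPKM in KO polysomes and 12.5, 19.4 and 13.8 in the KO RNP pool, all polysome libraries being lower, a call lost without KO RNP replicate 2 (adjusted p = 0.0623, the highest of 14 alternatives). The tubulins *Tubb6*, *Tubb4b*, *Tuba4a* and *Tubb3* were also lower, with log2 differences of -0.89 (SE 0.07, adjusted p = 3.66e-05), -0.55 (SE 0.08, adjusted p = 0.000980), -0.54 (SE 0.10, adjusted p = 0.00339) and -0.48 (SE 0.11, adjusted p = 0.00966). None of these groups overlapped. Without the intensity trend *Tubb4b*, *Tuba4a* and *Tubb3* were not called. The comparisons within WT and within KO use the same libraries as the comparisons between genotypes, and the difference between the genotypes' placements is the ratio test given above.

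**Figure D5:**
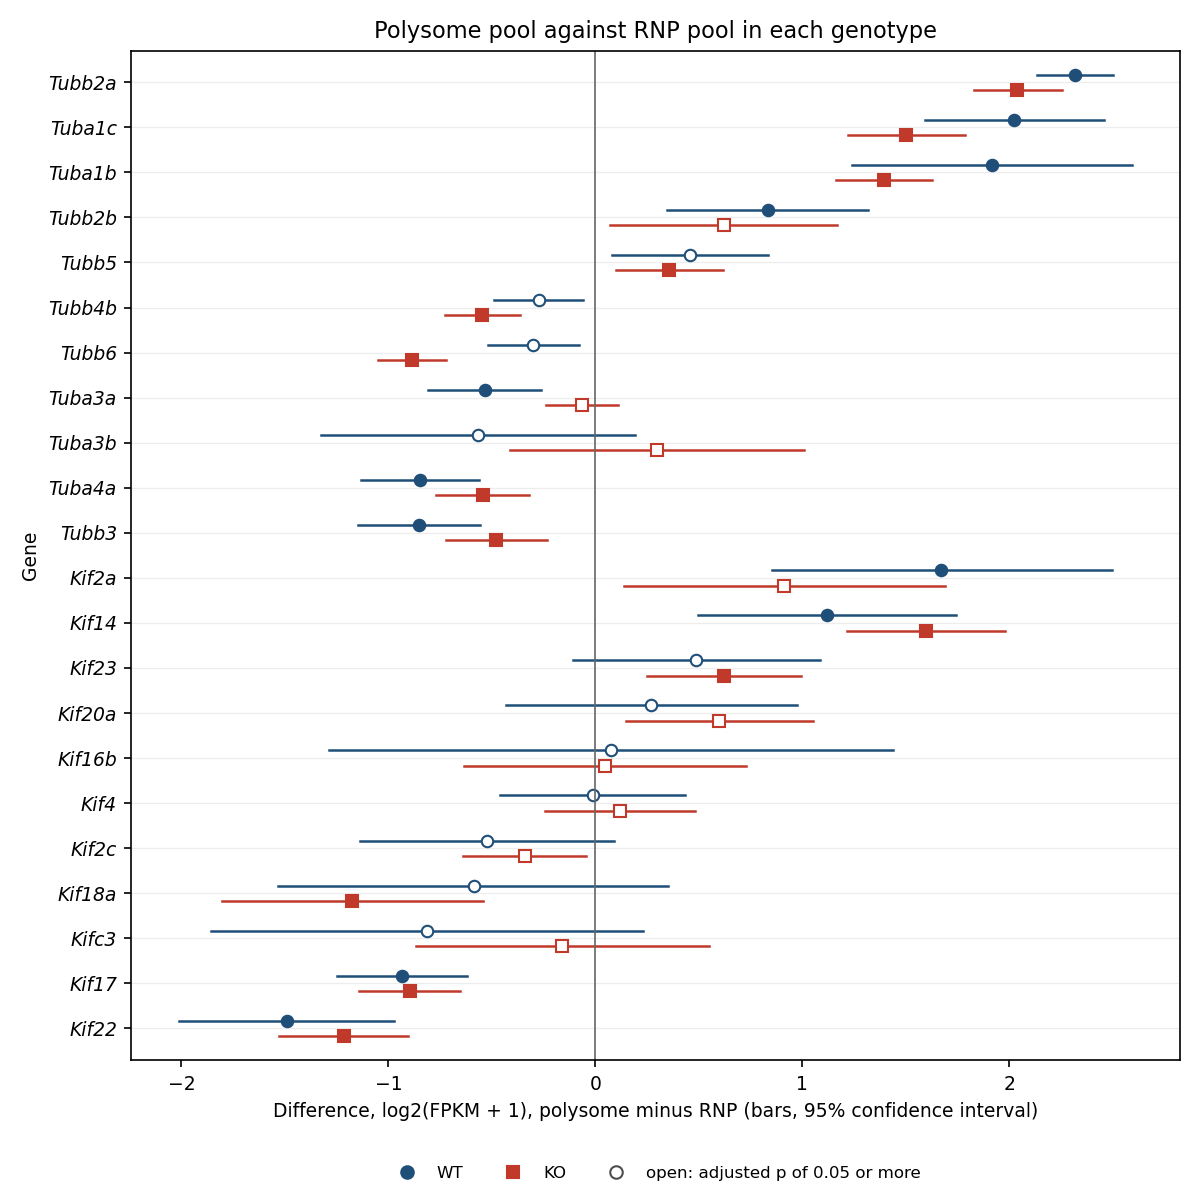
Log2 difference between the polysome and RNP pools for each tested member whose mean reached 10 FPKM, in WT and in KO, with 95% intervals from limma and 3 libraries per group. Filled points are called, and *Tubb2a*, *Tuba1c*, *Tuba1b* and *Kif14* are called higher in polysomes, *Kif22*, *Kif17*, *Tubb3* and *Tuba4a* lower, in both genotypes.

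Promoters of 46 member symbols, 50 windows, were matched in the RefSeq table of GRCm38.p6. The 150 bases before the start site were searched on both strands for 3 motifs that do not contain one another. These were the letters TATAAA of the TATA box, the letters CCAAT of the CCAAT box and the letters GGGCGG of the GC box. Over all 32851 windows of this length 7.57% held the TATA letters, 24.5% the CCAAT letters and 28.6% the GC letters. Of the 13 tubulin windows 1, 5 and 6 held them, in this order, and of the 37 kinesin windows 0, 16 and 20. *Tubb2a*, the tubulin with the largest difference between pools, was the member with the TATA letters. Its 150 bases are printed beside those of *Tuba1c*, called higher in the KO as well, and of *Tubb4b*, the most abundant member, with matches in capitals. They lie at chr13:34078009-34078158 on the minus strand, chr15:99029741-99029890 on the plus strand and chr2:25224703-25224852 on the minus strand, and each is written 5′ to 3′ on the strand of its gene.
Tubb2a: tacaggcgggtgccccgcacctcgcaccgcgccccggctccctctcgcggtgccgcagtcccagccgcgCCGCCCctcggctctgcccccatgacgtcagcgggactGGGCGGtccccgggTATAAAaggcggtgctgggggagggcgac
Tuba1c: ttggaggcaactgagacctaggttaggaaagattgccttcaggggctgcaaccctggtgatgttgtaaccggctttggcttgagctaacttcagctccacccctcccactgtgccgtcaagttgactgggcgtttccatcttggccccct
Tubb4b: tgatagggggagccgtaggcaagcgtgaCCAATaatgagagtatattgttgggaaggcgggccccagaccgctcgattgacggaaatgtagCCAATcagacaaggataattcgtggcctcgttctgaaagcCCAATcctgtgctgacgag

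*Tubb2a* held the TATA letters and, on either strand, the GC letters, *Tubb4b* held the CCAAT letters 3 times, and *Tuba1c* held none of these letters in this window. A match describes the letters only.

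Partners of microtubules outside the family were counted from lists of tubulin folding cofactors, modifying and severing enzymes, gamma tubulin ring genes, plus-end and other microtubule-binding proteins, dynein and dynactin, and kinesin partners. In KO against WT polysomes 8 of 75 tested were called, 4 higher and 4 lower, with a median log2 change of 0.22. That is 10.7%, near the 10.4% of all genes. In the RNP pool 17 of 74 were called, 14 higher and 3 lower, with a median of 0.12. That is 23.0%, near the 20.7% of all genes. *Nde1*, a dynein regulator, rose by 1.82 (SE 0.47, adjusted p = 0.0440) in polysomes and 1.38 (SE 0.25, adjusted p = 0.00512) in the RNP pool on the log2 scale. *Mapre2*, an end-binding protein gene, stood at 94.6, 101 and 89.7 FPKM in WT and 175, 178 and 174 in KO polysomes, a log2 change of 0.88 (SE 0.13, adjusted p = 0.00602). Its relative *Mapre3* was called higher in the KO RNP pool, at 12.7, 13.6 and 9.39 FPKM against 6.12, 0.0874 and 2.72 in WT, but reached the filter only through the KO libraries, so no fold is given. *Tpgs1*, a subunit of the tubulin polyglutamylase complex, stood at 51.98, 43.4 and 25.95 FPKM in the WT and 2.69, 7.41 and 2.97 in the KO RNP pool. It was lower in every KO library of both pools, with log2 changes of -1.97 (SE 0.40, adjusted p = 0.0191) in polysomes and -3.002 (SE 0.38, adjusted p = 0.000888) in the RNP pool. *Tbcc*, a cofactor of tubulin folding, fell likewise, with log2 changes of -1.52 (SE 0.38, adjusted p = 0.0405) and -1.77 (SE 0.18, adjusted p = 0.000267).

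In the ratio test 0 of 78 such genes were called by limma and 7 had an unadjusted p under 0.05. Between pools in WT 12 of 74 were called, 10 higher and 2 lower in polysomes, with a median log2 difference of 0.31. That is 16.2%, near the 14.7% of all genes. *Tubg2*, a gamma tubulin gene, and *Arl2*, a small GTPase of tubulin folding, were higher by 1.84 (SE 0.24, adjusted p = 0.00169) and 1.80 (SE 0.23, adjusted p = 0.00161). *Trak1*, a kinesin adaptor of mitochondria, and *Mapre1* were lower, at -0.94 (SE 0.25, adjusted p = 0.0395) and -0.83 (SE 0.19, adjusted p = 0.0240). In the KO 27 of 75 were called, 22 higher and 5 lower, with a median of 0.42. That is 36.0% beside 29.2% of all genes. *Numa1*, which gathers microtubules at spindle poles, and *Tubg2* were higher by 1.96 (SE 0.31, adjusted p = 0.00142) and 1.92 (SE 0.14, adjusted p = 2.07e-05). *Nde1* and the tubulin glutamylase gene *Ttll1* were lower in KO polysomes, at -1.03 (SE 0.18, adjusted p = 0.00226) and -0.95 (SE 0.31, adjusted p = 0.0489).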

How the data were processed

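RNA of the polysome and RNP pools was amplified by Smart-seq2 and sequenced. The authors aligned reads to mm10 with TopHat2 2.0.13 and computed expression with Cufflinks 2.2.1. Cuffnorm and Cuffdiff are also named among the tools, and how they scaled the libraries against one another was not examined. The deposited values are FPKM per gene symbol in 12 columns; the deposited fold-change and p columns of the authors' tests were not used. Depth was estimated from the steps between low FPKM values, and covers counting error only. The estimate assumes that each library was scaled to its own total. Tables were handled in pandas 2.3.3 and numpy 2.4.6 under Python 3.11.15, and figures drawn in matplotlib 3.10.9. Genes with at least 1 FPKM in at least 3 libraries of a comparison were kept. Log2 of FPKM plus a pseudocount of 1 was fitted in limma 3.58.1 (R 4.3.3) with an intensity trend, with p-values adjusted by Benjamini-Hochberg over all genes tested and called under 0.05. The pipeline was tested on simulated data. Named are members called in any of 5 comparisons, the 8 kinesins and 5 tubulins of highest mean level and a list of spindle and transport motors. Other microtubule genes are named for the 2 largest calls per direction. Genes outside these rules, such as *Kif16b*, were chosen after their values were seen. Alternatives were pseudocounts of 0.1 and 5, no filter and a filter at 5 FPKM, rescaling to the same median, quantile normalization, a replicate block, no intensity trend, and each library left out. The members and lists were chosen with earlier results of these data known. Coding sequences came from GENCODE M21 and promoters from RefSeq. Protein sequences were not used here.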

Additional observations from a re-analysis of the deposited data

How the results depend on the processing

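The 39 calls of members were recomputed under 546 alternatives in all. None of these reversed a direction, 73 lost the call, and 18 of the 39 calls passed in every alternative. Without the intensity trend 17 calls were lost, without the filter 6, with quantile normalization 4, with a replicate block 4 and with rescaled libraries 2. Pseudocounts of 0.1 and 5 and the filter at 5 FPKM lost none. Without the trend *Tubb2a*, *Tuba1c*, *Tubb3* and *Tubb5* lost their calls between genotypes in polysomes, and *Tuba4a*, *Tubb4b* and *Tubb6* in the RNP pool. Between pools *Kif14*, *Kif17*, *Tuba3a*, *Tuba4a*, *Tubb2b* and *Tubb3* lost theirs in WT, and *Tuba4a*, *Tubb3*, *Tubb4b* and *Tubb5* in the KO. In the other direction, 19 member results with no call gained one in 27 alternatives. Those of *Tuba1a* without WT polysome replicate 2 and of *Kif3b* without KO polysome replicate 3 reached the filter only through the higher group, so they carry no weight. The same holds for *Kif26b* between pools in the KO without the intensity trend. Its KO RNP replicates 1 and 3 stood at 0.679 and 0.766 FPKM. Where no construction of the alternative shows it, the cause was not tested.

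Of the 5 members called between genotypes in polysomes, 3 were called without the filter, 3 with quantile normalization, 3 with a replicate block and 1 without the intensity trend. For all genes the 989 calls became 545 without the filter and 508 without the trend. With 1 library left out 3 to 5 members and 383 to 790 genes were called, with 522, 398 and 383 genes without KO polysome replicates 1, 2 and 3. Of these 247, 149 and 136 were higher and 275, 249 and 247 lower, against 538 and 451 with all libraries. Genes reaching the filter only in the KO are dropped from these fits by construction. The members' median lay between 0.05 and 0.32 with 1 library left out, at 0.01 without the filter and at 0.36 with the filter at 5 FPKM. *Tubb3* lost its call without each library but WT polysome replicate 1 (adjusted p 0.0553 to 0.106), and *Tubb5* without each but WT polysome replicate 3 (0.0529 to 0.104).

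In the RNP pool 8 to 10 members and 1255 to 1911 genes were called with 1 library left out, with 1255, 1259 and 1298 genes without KO RNP replicates 1, 2 and 3. Of these 548, 538 and 555 were higher and 707, 721 and 743 lower, against 1044 and 1013 with all libraries. Here too genes reaching the filter only in the KO are dropped by construction. *Tubb4b* lost its call without each library but WT RNP replicate 3 (adjusted p 0.0519 to 0.107), and *Kifc3* without KO RNP replicate 2 (0.0588).

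In the ratio test 1 member, *Tubb6*, was called with the filter at 5 FPKM (adjusted p = 0.0403), 1 with quantile normalization (0.0347) and 0 to 1 with a library left out, the 1 without WT polysome replicate 3 (0.0283), in a range of 0.0283 to 0.416. The 26 calls among all genes became 11 with a replicate block, 0 with the block within genotype, 6 without the trend and 0 to 46 with a library left out. The members' median of -0.06 became 0.04 with the filter at 5 FPKM, and lay between -0.21 without WT polysome replicate 1 and 0.03 without WT polysome replicate 2. The calls among all genes were 46 without WT polysome replicate 3, 2 and 3 without WT RNP replicates 2 and 3, 10 and 15 without KO polysome replicates 2 and 3, and 3, 0 and 1 without KO RNP replicates 1, 2 and 3.

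Between pools in WT 5 members and 728 genes were called without the trend, and 7 to 10 members and 780 to 1212 genes with a library left out, the genes being 783, 786 and 780 without WT RNP replicates 1, 2 and 3. Calls were lost for *Kif14* without each library but WT RNP replicate 3 (adjusted p 0.0568 to 0.0843), *Tubb2b* without each but WT polysome replicate 2 (0.0590 to 0.110), *Tuba3a* without each WT RNP library (0.0515 to 0.0785) and *Kif2a* without WT RNP replicates 1 and 3 (0.0563 to 0.0607). The members' median of 0.03 became -0.05 with a pseudocount of 0.1, -0.01 without the filter and -0.03 with rescaled libraries, and lay between -0.13 without WT RNP replicate 2 and 0.10 without WT polysome replicate 3. In the KO 10 to 16 members and 2030 to 2909 genes were called. *Tubb5* lost its call without each library but KO polysome replicate 3 (0.0798 to 0.136), *Kif23* without each KO RNP library (0.0518 to 0.0729) and *Kif18a* without KO RNP replicate 2 (0.0623). Calls were gained by *Kif18b*, *Kif20a*, *Kif2a* and *Kif2c* without KO polysome replicate 1 (lowest adjusted p 0.0409), *Kif20b* and *Tubb2b* without replicate 2 (0.0340 and 0.0423) and *Kif20a* without replicate 3 (0.0423).

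The labels name no pairing of libraries by replicate number. Deviations from the group mean in libraries of the same number correlated at -0.02 to 0.03 over 12 pairs, and 3 were best with their own number, so the replicate block was kept as an alternative. Depth limits members near 1 FPKM, since 3 fragments on a transcript of 1.5 kb correspond to 0.293 to 0.489 FPKM.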
